A study of Mus musculus with 3 samples.

Results

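The 10 genes described here encode the NF-kB subunits and the proteins that hold them back or release them. They were taken by symbol from the deposited table: Nfkb1, Nfkb2, Rel, Rela, Relb, Nfkbia, Nfkbib, Nfkbie, Tnfaip3 and Map3k14. All 10 were found among 54532 genes, and all 10 were among the 11069 genes whose FPKM averaged 1 or more over the libraries, on which the counts below rest. FPKM is the number of fragments divided by gene length in kilobases and by library depth, here a depth already scaled between libraries. RNA was sequenced from wild-type RAW264.7, an established macrophage-like cell line of the mouse. Given the cytokine RANKL, its cells become osteoclasts, which resorb bone. All 3 libraries came from cells given RANKL for 3 days. The first, labelled 0 h, received no thyroid stimulating hormone (TSH) and is called RANKL alone. In the other libraries TSH was added at 10 mU/mL, in one for 2 h and in one for 24 h. They are called T1 and T2 after their columns, and since it is not known which of them had the longer exposure, nothing is read from the hours. There was 1 library per condition, so no difference has a replicate check and no p-value is given. Time in culture may differ along with TSH, and the T1 and T2 comparisons share the library of RANKL alone.

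NF-kB is a family of paired transcription factors whose subunits share the Rel homology domain. Inhibitor proteins of the IkB family keep the pairs in the cytoplasm until the IKK kinases mark the inhibitors for destruction, which is the canonical branch. In the alternative branch the NF-kB inducing kinase, encoded by Map3k14, drives the processing of the Nfkb2 product, which then pairs with RelB. RANKL engages both branches through its receptor RANK, and mice that lack both the Nfkb1 and the Nfkb2 product form no osteoclasts. Several genes of the system are themselves NF-kB targets, among them Nfkbia and Tnfaip3, so that the pathway induces its own brakes.

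The promoters are shown first because the feedback genes are known for the motif that binds NF-kB. RefSeq promoters (GRCm38.p6, 250 bases before to 50 after the start site) were given for 8 of the 10 genes. Both strands were searched for the 10-base kB consensus, the classical NF-kB binding motif, and overlapping matches were merged. A match stood in a promoter of 5 of the 8 genes, Nfkb2, Rel, Nfkbia, Nfkbie and Tnfaip3. Among all 32851 RefSeq promoters, 4.51% held one, and of all 27025 genes 5.14% had one in at least 1 promoter. No match was found in the windows of Rela, Nfkbib and Map3k14. The Nfkbib window lies inside the annotated gene and does not reach the bases before its annotated 5′ end. The following stretches are written 5′ to 3′ along the gene's strand with the matching bases in capitals. Windows that touch an exon annotated in GENCODE M21 were kept short.
Nfkbia: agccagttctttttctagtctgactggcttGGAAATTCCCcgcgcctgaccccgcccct
Nfkbie: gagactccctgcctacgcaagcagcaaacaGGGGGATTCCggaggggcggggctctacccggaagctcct
Tnfaip3, farther match: ctcacgcgGGGACACCCCggggcggg
Tnfaip3, nearer match: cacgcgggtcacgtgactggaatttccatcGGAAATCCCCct
Rel: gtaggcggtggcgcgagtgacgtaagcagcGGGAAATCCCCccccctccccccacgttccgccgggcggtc
Nfkb2, farther match: atcgtcacGGGAATTCCCCccctcggg
Nfkb2, nearer match: ggccgaaaGGGGCTTTCCc

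The Nfkbia stretch lies at chr12:55492648-55492706 on the minus strand, and its match begins 29 bases before the start site. The Nfkbie stretch lies at chr17:45555564-45555633 on the plus strand, with the match 106 bases before the start. For Tnfaip3 the stretches lie at chr10:19015518-19015543 and chr10:19015411-19015452 on the minus strand, with matches that begin 125 and 12 bases before the start. Both lie inside the gene as annotated, whose 5′ end is at 19015657, so that this RefSeq start is farther in. The Rel stretch lies at chr11:23771021-23771091 on the minus strand, with matches at 2 overlapping positions that begin 92 bases before the start. For Nfkb2 the stretches lie at chr19:46304690-46304716 and chr19:46304718-46304736 on the plus strand, with matches that begin 39 and 11 bases before the start, the first of them also at 2 overlapping positions. Both Nfkb2 stretches lie wholly in exons annotated for this gene in GENCODE M21, though before its deposited start at 46304737. Of the 11 promoters that RefSeq lists for the 8 genes 7 held a match, and only those of the promoter nearest the annotated 5′ end are printed. A match is a run of letters, not a measured binding site.

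**Figure D1:**
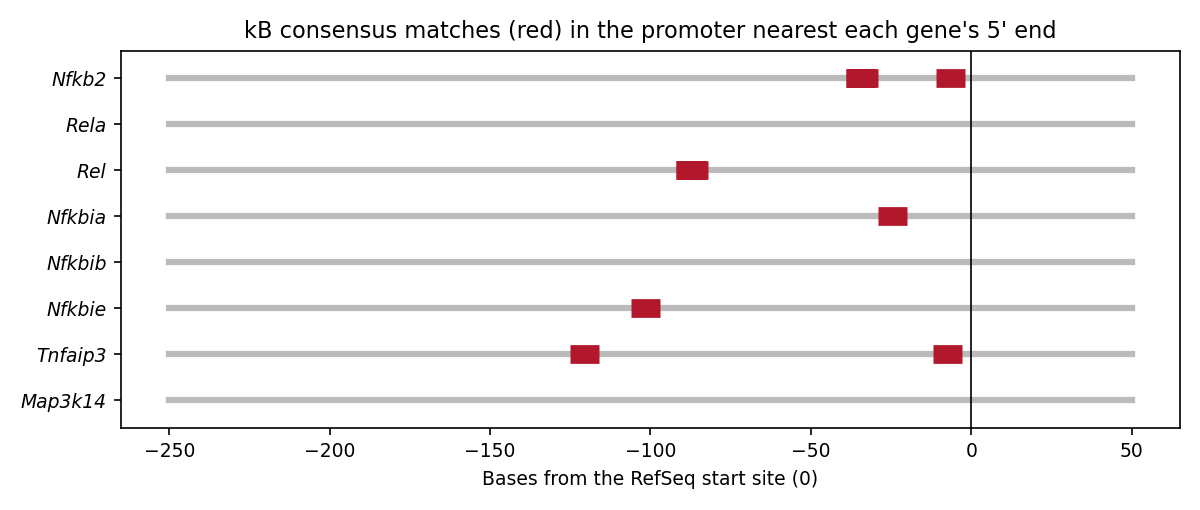
Positions of kB consensus matches (red) in the promoter nearest the annotated 5′ end of each of the 8 genes with a RefSeq promoter, in bases from the start site at 0. Nfkb2 and Tnfaip3 each have 2 separate stretches with a match, Rel, Nfkbia and Nfkbie have 1 each, and Rela, Nfkbib and Map3k14 have none in these windows. Those of Nfkb2 lie in exons annotated for it in GENCODE M21. The Nfkbib window lies inside the annotated gene.

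Reads recovered from the deposited FPKM summed to between 16156926 and 17390744 per library, and each of the 10 genes had between 375 and 4681 reads in a library. Intervals given with values are 95% intervals from these reads (exact Poisson for a level, exact conditional Clopper-Pearson for a ratio). They cover counting error only, as there was 1 library per condition. Copies made by PCR are not independent molecules, so the intervals can be too narrow even for that error. Osteoclast markers were present, 9 of 10 of them averaging 1 FPKM or more. Their sum was 3097 FPKM in RANKL alone, 2572 in T1, 2496 in T2, carried mostly by Ctsk (1337, 983 and 980 FPKM) and Acp5 (972, 857 and 822 FPKM), while Nfatc1 was highest in T1 (165, 173 and 159 FPKM). Macrophage markers passed in 7 of 9 cases, with sums of 1494, 1464 and 1458 FPKM, within which Lyz2 and Cd14 were lowest and Csf1r, Cd68 and Spi1 highest in RANKL alone. Of the markers of other cells, 0 of 10 for fibroblasts and osteoblasts, 0 of 9 for neutrophils and 1 of 10 for lymphocytes passed, and Col1a2, Ly6g and Cd3e had no reads in any library. For dendritic cells 2 of 8 passed, and their sum, between 85.1 and 95.3 FPKM, came mostly from Cd74, while Flt3 had no reads. In bulk RNA a smaller share of osteoclasts and less RNA per osteoclast cannot be told apart. The part that the lower osteoclast markers have in the differences below was not tested. Among 12 common reference genes, 2 were higher and 3 lower beyond counting error in T1, and 3 and 4 in T2, in all 41.7% and 58.3% against 23.1% and 23.4% of all tested genes. Ppia stood apart at 194, 366 and 378 FPKM in RANKL alone, T1 and T2, while Rplp0 had ratios of 1.11 and 1.1.

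All 5 subunit genes were expressed in every library, led by Nfkb2, whose product is the precursor of the alternative branch. Nfkb2 (ENSMUSG00000025225, chromosome 19, 46304737 to 46312090, GRCm38) stood at 64.3 FPKM in RANKL alone, 62.9 in T1, 60.4 in T2. Rela (ENSMUSG00000024927, chromosome 19, 5637483 to 5648130), which encodes the main activating subunit of the canonical branch, followed at 29.997, 29.8 and 30.5 FPKM. The level of Rela did not differ between any pair of libraries beyond counting error. Relb (ENSMUSG00000002983, chromosome 7, 19606217 to 19629438), the partner of the processed Nfkb2 product, stood at 16.1, 15.0 and 14.1 FPKM, and was highest with RANKL alone. Nfkb1 (ENSMUSG00000028163, chromosome 3, 135584655 to 135691547), which encodes the precursor of the canonical DNA-binding subunit, stood at 15.5, 16.7 and 15.0 FPKM, and was highest in T1. Rel (ENSMUSG00000020275, chromosome 11, 23736847 to 23770970), encoding the c-Rel subunit known best from lymphocytes, was lowest of the 5 at 12.1, 12.2 and 12.4 FPKM. Its intervals overlapped across the 3 libraries.

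The levels, unlike the ratios between libraries, depend on the length by which reads are divided. The deposited length of Nfkb1 is 12061 bases, the union of the exons of its 10 annotated transcripts, while its longest coding transcript has 4117 bases. Per longest coding transcript, a choice made after the values were seen, Nfkb1 stood at 45.4, 49.0 and 44.0 FPKM. This measure divides all reads of a gene by the length of that transcript. Where reads come from exons outside it, as they may for Nfkb1 and Relb, the value is too high for that transcript. Nfkb1 then had rank 3 of the 10 genes in each library, against ranks 7, 6 and 6 with the deposited length. By the same measure Relb stood at 28.3, 26.3 and 24.7 FPKM, near Rela at its unchanged 29.997, 29.8 and 30.5. For Nfkb2 the deposited length of 3289 bases is below both its exon union in GENCODE M21 (4584 bases) and its longest coding transcript (3846 bases). Per longest coding transcript Nfkb2 stood lower, at 55.0, 53.8 and 51.7 FPKM, still above Nfkb1. If its reads were counted over the deposited 3289 bases only, dividing them by 3846 bases makes these values too low.

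Within the summed FPKM of the 5 subunits Nfkb2 made up 46.6% in RANKL alone, 46.1% in T1, 45.6% in T2. Rela made up 21.7%, 21.8% and 23.0%, and Relb 11.7%, 10.96% and 10.6%. Nfkb1 had 11.2%, 12.3% and 11.3%, and Rel 8.80%, 8.91% and 9.39%. The order of the shares was led by Nfkb2 and Rela in every library. Per longest coding transcript the share of Nfkb2 was 32.2%, 31.4% and 31.6% and that of Nfkb1 was 26.6%, 28.7% and 26.9%. By that measure these precursor genes lay closer together. The shares thus depend on the lengths used for both genes, and which lengths give the truer shares was not tested.

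**Figure D2:**
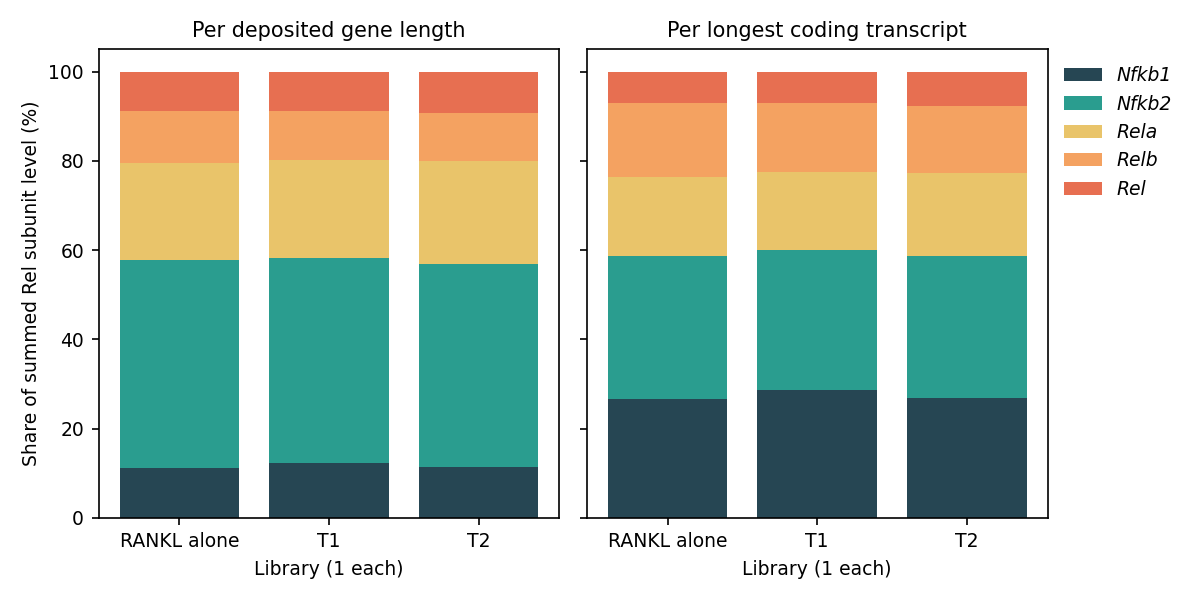
Share of each subunit gene in the summed level of the 5 subunit genes (%, stacked bars from 0), in 1 library each of RANKL alone, T1 and T2, from the deposited gene length (left) and from the longest coding transcript (right). Nfkb2 takes 46.6%, 46.1% and 45.6% on the left and 32.2%, 31.4% and 31.6% on the right, and the libraries differ far less than the panels do.

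The inhibitor Nfkbia was the most abundant of the 10 genes. Nfkbia (ENSMUSG00000021025, chromosome 12, 55489410 to 55492647) encodes IkB alpha, which is degraded and remade within each round of canonical signalling, and it stood at 173 FPKM in RANKL alone, 173 in T1, 161 in T2. Its level was 5.78 times that of Rela (5.44 to 6.15) with RANKL alone, 5.82 times (5.48 to 6.19) in T1 and 5.29 times (4.98 to 5.61) in T2. Nfkbie (ENSMUSG00000023947, chromosome 17, 45555703 to 45563169), encoding IkB epsilon, stood at 24.1, 22.7 and 21.6 FPKM, highest with RANKL alone. Nfkbib (ENSMUSG00000030595, chromosome 7, 28758251 to 28767512), encoding IkB beta, stood at 17.0, 18.2 and 20.6 FPKM, highest in T2. The interval of Nfkbib in T2 (19.2 to 22.1 FPKM) lay above that with RANKL alone (15.6 to 18.4 FPKM), whereas those of RANKL alone and T1 overlapped. Nfkbie and Nfkbib were thus apart with RANKL alone and in T1, and their intervals overlapped in T2. Per longest coding transcript they were apart in T2 too, at 27.0 (25.5 to 28.6) for Nfkbie and 21.7 (20.2 to 23.3) for Nfkbib.

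Tnfaip3 (ENSMUSG00000019850, chromosome 10, 19000910 to 19015657) encodes a ubiquitin-editing enzyme that shuts down signalling upstream of IKK. It stood at 11.1 FPKM in RANKL alone, 9.25 in T1, 9.48 in T2, and the interval with RANKL alone (10.5 to 11.7 FPKM) lay above both others. Map3k14 (ENSMUSG00000020941, chromosome 11, 103219762 to 103267472), the kinase gene of the alternative branch, was the lowest of the 10 at 3.55, 3.56 and 3.64 FPKM, from 375 to 418 reads. Traf3 encodes the adaptor that marks this kinase for degradation, and the level of Map3k14 was 0.193 (0.172 to 0.215), 0.209 (0.187 to 0.232) and 0.202 (0.182 to 0.224) times that of Traf3. The 3 intervals overlap.

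**Figure D3:**
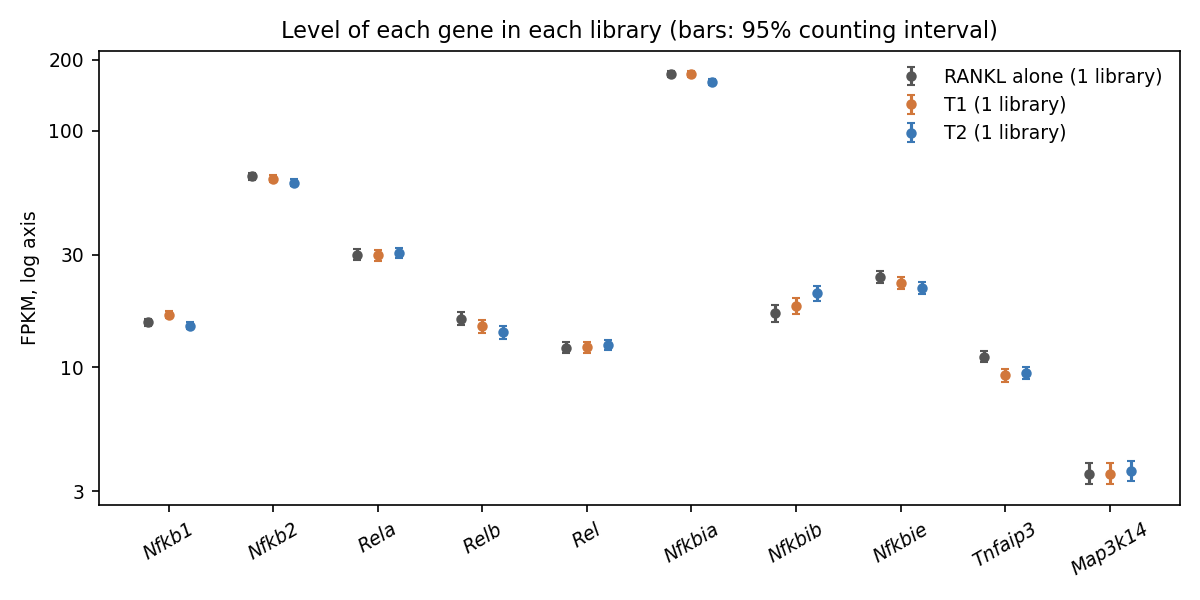
Level of each of the 10 genes in FPKM per deposited gene length (log axis) in 1 library each of RANKL alone, T1 and T2, with 95% counting intervals as bars. Nfkbia lies near 170 FPKM and Map3k14 near 3.6 in all libraries, Tnfaip3 is highest with RANKL alone, and Nfkbib is highest in T2.

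The first comparison set T1 beside RANKL alone, for how the NF-kB genes differed with TSH. Tnfaip3 was lower, and Nfkb1 was slightly higher. The other 8 genes did not differ beyond counting error, that is, their intervals held a ratio of 1, though with libraries rescaled to the same FPKM total Relb was lower as well, at 0.913 (0.835 to 0.998). Tnfaip3 had a ratio of 0.833 (0.768 to 0.903), a level 16.7% below that of RANKL alone. Nfkb1 had a ratio of 1.08 (1.03 to 1.13). Nfkbia was at 1.0 (0.960 to 1.04), the narrowest interval of the 10. Rel was at 1.0 (0.931 to 1.08), Map3k14 at 1.0 (0.868 to 1.16), Rela at 0.993 (0.919 to 1.07) and Nfkb2 at 0.978 (0.933 to 1.03). Relb, at 0.929 (0.850 to 1.02), Nfkbie, at 0.940 (0.866 to 1.02), and Nfkbib, at 1.08 (0.961 to 1.2), lay farther from 1 with wider intervals.

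In T1 1 of 10 genes was thus higher beyond counting error, where 10.8% of the 11069 genes were, and 1 of 10 was lower, where 12.2% were. In both directions together 2 of 10 differed and the share of all was 23.1%, or 24.9% over the 6165 genes whose reads lay within the range of the 10. The members' count is near that background. The median change over the 10 genes was -0.0053 on the scale of log2(FPKM + 1), which understates changes of low genes, against -0.0014 over all 11069. By the size rule, an absolute change of at least 1 on that scale (2-fold), 0 of 10 genes passed, as did 1.04% of all, and at a fold of 1.2 the shares were 0 of 10 and 10.2%.

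The next comparison set T2 beside that library of RANKL alone. Both NF-kB genes of the alternative branch that form a pair, Nfkb2 and Relb, were lower, and so were the feedback genes Nfkbia, Nfkbie and Tnfaip3. Nfkbib was higher, and Rela, Rel, Nfkb1 and Map3k14 did not differ beyond counting error. Tnfaip3 had a ratio of 0.853 (0.788 to 0.923) and Relb one of 0.874 (0.799 to 0.956). Nfkbie was at 0.895 (0.824 to 0.971), Nfkbia at 0.929 (0.891 to 0.968) and Nfkb2 at 0.940 (0.897 to 0.986), a difference that was lost with a 99% interval. Nfkbib was at 1.22 (1.09 to 1.35), the largest ratio of the 10. Rela was at 1.02 (0.943 to 1.1), Rel at 1.02 (0.954 to 1.1), Map3k14 at 1.03 (0.890 to 1.18) and Nfkb1 at 0.968 (0.920 to 1.02).

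In T2 5 of 10 genes were lower beyond counting error, where 13.2% of all 11069 were, and 1 of 10 was higher, where 10.2% were. In both directions 6 of 10 differed, against 23.4% of all genes and 26.0% of the 6165 genes within the same range of reads. Of the 12 common reference genes 58.3% differed in T2, a share near that of the 10 genes. The median change was -0.07 over the 10 and -0.0018 over all. The 10 genes belong to 1 regulatory system and are not replicates of each other. By the size rule 0 of 10 passed, as did 0.768% of all, and only Nfkbib reached a fold of 1.2, as did 9.91% of all.

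The call for Nfkbib carries a limit of annotation. Its exons share 314 bases with those of Ccer2 and 42 with those of Sirt2, both on the opposite strand, and how reads were assigned by strand is not stated. Ccer2 had 2, 0 and 1 reads, and Sirt2 stood at 8.46, 8.49 and 8.69 FPKM, a ratio in T2 of 1.03 (0.926 to 1.14). Nfkb2 shares 299 bases with Psd, also on the opposite strand, whose ratio in T2 was 1.14 (1.01 to 1.29), opposite in direction to that of Nfkb2, and 531 bases with AC114539.1. These are bases of GENCODE M21 exons, and the deposited length of Nfkb2 is below its exon union there. Which of them were counted for Nfkb2 is not known. Relb holds a stretch of at least 100 bases that is at least 95% identical to transcripts of 45 other genes. Map3k14 shares 135 bases with 1700028N14Rik on its own strand, a gene with 3, 1 and 1 reads. The part of these shared bases in the results was not tested. The other 6 genes shared no exon bases and no such stretch with another gene.

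Of the 5 genes with a kB match in a promoter, 4 were lower in T2 (Nfkb2, Nfkbia, Nfkbie and Tnfaip3) and 1, Rel, was not. Of the 3 with a promoter and no match, 0 were lower and Nfkbib was higher. For Nfkbib the window searched lies inside the annotated gene, so the bases before its annotated 5′ end were not covered. In T1 1 of the 5, Tnfaip3, was lower, and 0 of the 3 differed. Over all tested genes with a promoter the shares lower in T2 lay close together, at 15.6% of 467 with a match and 13.7% of 7364 without.

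**Figure D4:**
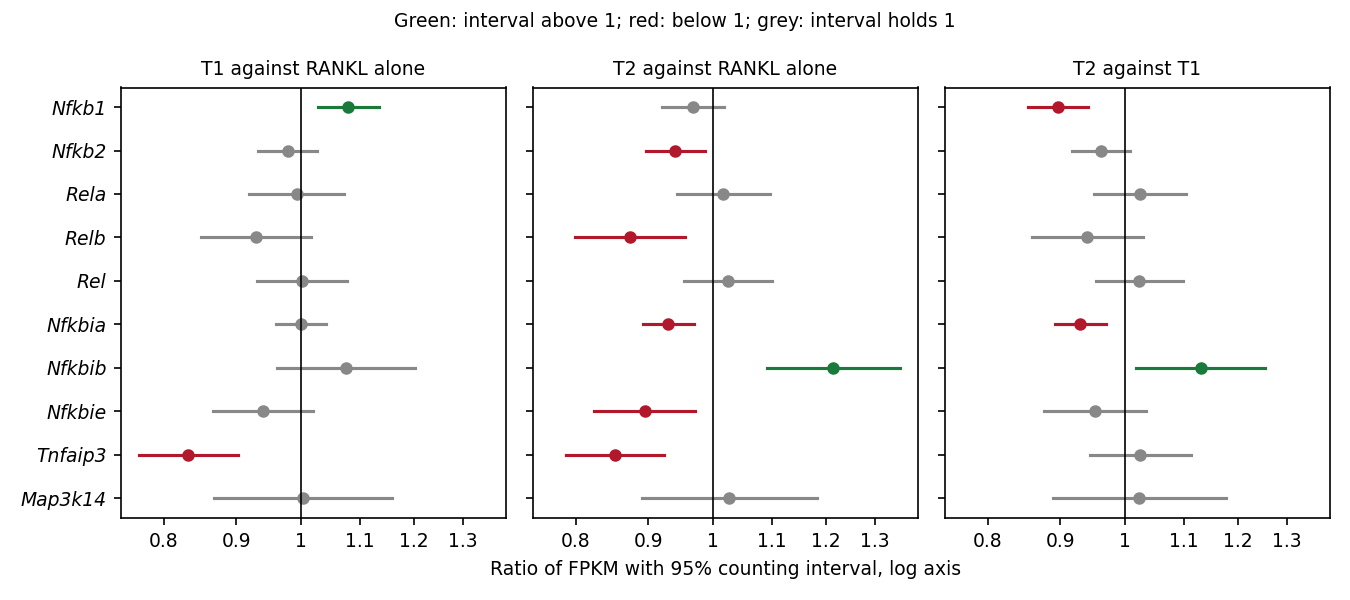
Ratio of FPKM with its 95% counting interval (log axis) for the 10 genes in T1 against RANKL alone, T2 against RANKL alone and T2 against T1, 1 library each. Green and red intervals leave out 1 on the upper and lower side: 1 and 1 genes in T1, 1 and 5 in T2, and 1 and 2 between the TSH libraries.

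The last comparison set the TSH libraries beside each other. Nfkb1 was lower in T2 than in T1, with a ratio of 0.896 (0.854 to 0.941), and Nfkbia was lower as well, at 0.929 (0.892 to 0.968). Nfkbib was higher, at 1.13 (1.02 to 1.26), an interval that held 1 at a level of 99%. Tnfaip3 did not differ between them, at 1.02 (0.943 to 1.11), and neither did Nfkbie (0.952, 0.877 to 1.03), Relb (0.940, 0.859 to 1.03) or Nfkb2 (0.961, 0.917 to 1.01). Rela, Rel and Map3k14 were each at 1.02. Thus 2 of 10 genes were lower, where 10.1% of all were, and 1 of 10 was higher, where 7.93% were. In both directions 3 of 10 differed, against 18.0% of all and 19.1% in the same range of reads. By the size rule 0 of 10 passed, as did 0.831% of all, and at a fold of 1.2 0 of 10 and 8.45%. Within the libraries, the level of Relb relative to Rela was 0.537 (0.494 to 0.583) with RANKL alone, 0.503 (0.462 to 0.546) in T1 and 0.462 (0.425 to 0.501) in T2. That of Nfkb2 relative to Nfkb1 was 4.14 (3.95 to 4.35), 3.76 (3.58 to 3.94) and 4.03 (3.84 to 4.23), lowest in T1. These relative levels depend on length. Per longest coding transcript Nfkb2 was at 1.21, 1.096 and 1.18 times the level of Nfkb1, and Relb at 0.944, 0.884 and 0.812 times that of Rela.

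The rest of the pathway was read from 6 lists of genes. Their counts stand against all tested genes, of which 10.8% were higher and 12.2% lower beyond counting error in T1, and 10.2% and 13.2% in T2. The receptor gene Tnfrsf11a, encoding RANK, stood at 42.3 FPKM in RANKL alone, 41.3 in T1, 39.0 in T2, giving ratios of 0.978 (0.936 to 1.02) for T1, 0.922 (0.882 to 0.963) for T2. Tnfsf11, the gene of RANKL itself, had no reads in any library, and Tshr had 0, 2 and 0. Of 17 genes from RANK itself to the adaptors and kinases above IKK, 1 was higher and 4 lower in T1 (29.4% in all), and 1 and 4 in T2 (29.4%), with medians of -0.04 and -0.03. Tnfrsf11a is 1 of the 4 lower in T2. Traf6, the ubiquitin ligase that RANK recruits, was at 15.3, 12.8 and 14.2 FPKM, ratios of 0.837 (0.783 to 0.893) and 0.926 (0.869 to 0.987). Traf6 was lower in both TSH libraries than with RANKL alone and lowest in T1. Map3k3, a kinase upstream of IKK, was at 14.5, 16.2 and 16.9 FPKM, ratios of 1.12 (1.02 to 1.22) and 1.16 (1.07 to 1.27). Tab3, a partner of the kinase TAK1, had ratios of 0.840 (0.724 to 0.975) and 0.916 (0.793 to 1.06).

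Of 8 genes of the IKK complex and its TBK1 relatives 7 passed the filter. In T1 0 were higher, 4 lower and 3 within counting error, where 12.2% of all genes were lower, and in T2 0 were higher and 2 lower, where 13.2% were. The medians were -0.09 and -0.05. Tbkbp1, a TBK1 adaptor gene, had ratios of 0.901 (0.843 to 0.963) and 0.904 (0.847 to 0.966). The adaptor genes Tank and Azi2 were at 0.917 (0.869 to 0.968) and 0.901 (0.830 to 0.979) in T1, and at 0.957 (0.908 to 1.01) and 1.01 (0.934 to 1.09) in T2. Ikbkg, the gene of the regulatory IKK subunit, was lower in T1, at 0.935 (0.877 to 0.997), and at 0.963 (0.904 to 1.03) in T2. The catalytic subunit genes did not differ beyond counting error in T1: Chuk stood at 15.0, 14.8 and 13.7 FPKM and Ikbkb at 5.51, 5.36 and 5.46 FPKM. Chuk was lower in T2, at 0.917 (0.847 to 0.994).

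Among 14 genes of ubiquitin editing and other brakes, 4 were higher and 0 lower in T1, and 1 and 0 in T2, with medians of -0.0044 and 0.0023. In both directions together that is 28.6% in T1, near the 23.1% of all genes, and 7.14% in T2, against 23.4%. Of the 14 genes 7 lay above and 7 below a ratio of 1 in each comparison. Tnfaip3, which belongs to the same kind of genes but not to this list, was lower in both. Sharpin, a subunit of the linear ubiquitin ligase, was at 8.06, 9.61 and 8.17 FPKM, ratios of 1.19 (1.06 to 1.35) and 1.01 (0.896 to 1.15). Usp21, a deubiquitinase gene, had ratios of 1.23 (1.05 to 1.43) and 1.07 (0.916 to 1.25), and Tnip3 ones of 1.19 (1.03 to 1.38) and 1.07 (0.923 to 1.24). Compared directly, Sharpin was lower in T2 than in T1, at 0.850 (0.756 to 0.955), whereas the intervals of Usp21 (0.872, 0.754 to 1.01) and Tnip3 (0.897, 0.781 to 1.03) held 1.

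Of 11 atypical IkB proteins and nuclear modulators, 1 was higher and 2 lower in T1, and 2 and 1 in T2, with medians of -0.03 and -0.0079. That is 27.3% in each, near the 23.1% and 23.4% of all genes. Pdlim2 encodes a nuclear ubiquitin ligase that ends the activity of the Rela product. It stood at 3.22, 4.56 and 4.12 FPKM, ratios of 1.42 (1.2 to 1.68) and 1.28 (1.08 to 1.52), from 233 to 343 reads. It was higher in both TSH libraries, and in T2 its interval overlapped that of Nfkbib. Bcl3, an IkB protein that binds the processed products of Nfkb1 and Nfkb2, was at 1.03 (0.918 to 1.15) in T1 and 0.868 (0.773 to 0.974) in T2, and Nfkbil1 at 0.976 (0.802 to 1.19) and 0.824 (0.673 to 1.01). Of 8 genes of IkB turnover and export 7 passed the filter, and Btrc, with 257, 241 and 305 reads, did not. Among the 7, 0 were higher and 1 lower in T1 (14.3% in all, against 23.1% of all genes) and 2 and 1 in T2 (42.9%, against 23.4%), with medians of 0.02 and -0.03. Cul1, a scaffold of the ligase that marks IkB, was at 1.02 (0.965 to 1.09) in T1 and 1.08 (1.02 to 1.15) in T2, and the export receptor gene Xpo1 at 1.01 (0.975 to 1.05) and 1.07 (1.03 to 1.12). The importin gene Kpna4 was lower in both, at 0.928 (0.866 to 0.994) and 0.923 (0.862 to 0.989).

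Target genes of NF-kB went both ways. Of 31, 22 passed the filter, and 2 were higher and 6 lower beyond counting error in T1, and 3 and 9 in T2, where 10.8%, 12.2%, 10.2% and 13.2% of all genes were. Their medians were -0.01 and -0.05, against -0.0014 and -0.0018 over all genes. In both directions together 36.4% of the targets differed in T1 and 54.5% in T2, against 23.1% and 23.4% of all genes. Among the 12 common reference genes the shares were higher still, at 41.7% and 58.3%. A share over genes of like depth was not computed for the targets, whose reads in RANKL alone ran from 62 to 19781. In T1 11 of the 22 lay above a ratio of 1 and 11 below, and in T2 8 and 14. Plau, encoding the urokinase protease, was at 295, 250 and 226 FPKM, ratios of 0.846 (0.824 to 0.870) and 0.764 (0.744 to 0.786). Gadd45b, a stress response gene, was at 17.9, 14.5 and 13.7 FPKM, ratios of 0.811 (0.707 to 0.930) and 0.764 (0.665 to 0.877). Both were lower in each TSH library. Bcl2l1, a survival gene, was at 0.974 (0.830 to 1.14) in T1 and 0.771 (0.651 to 0.913) in T2. The 3 targets that were higher in T2 were Tnf, Ccl3 and Plek, while of the 9 lower only Plau, Gadd45b and Bcl2l1 are given with ratios. Tnf, an inflammatory cytokine gene, was at 23.6, 24.8 and 26.5 FPKM, with a T2 ratio of 1.12 (1.01 to 1.25). Ccl3, a chemokine gene, was at 160, 153 and 184 FPKM, with a T2 ratio of 1.15 (1.08 to 1.22), and Plek was at 1.14 (1.08 to 1.21). Il6 and Cxcl1, also inflammatory targets, had no reads in any library.

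**Figure D5:**
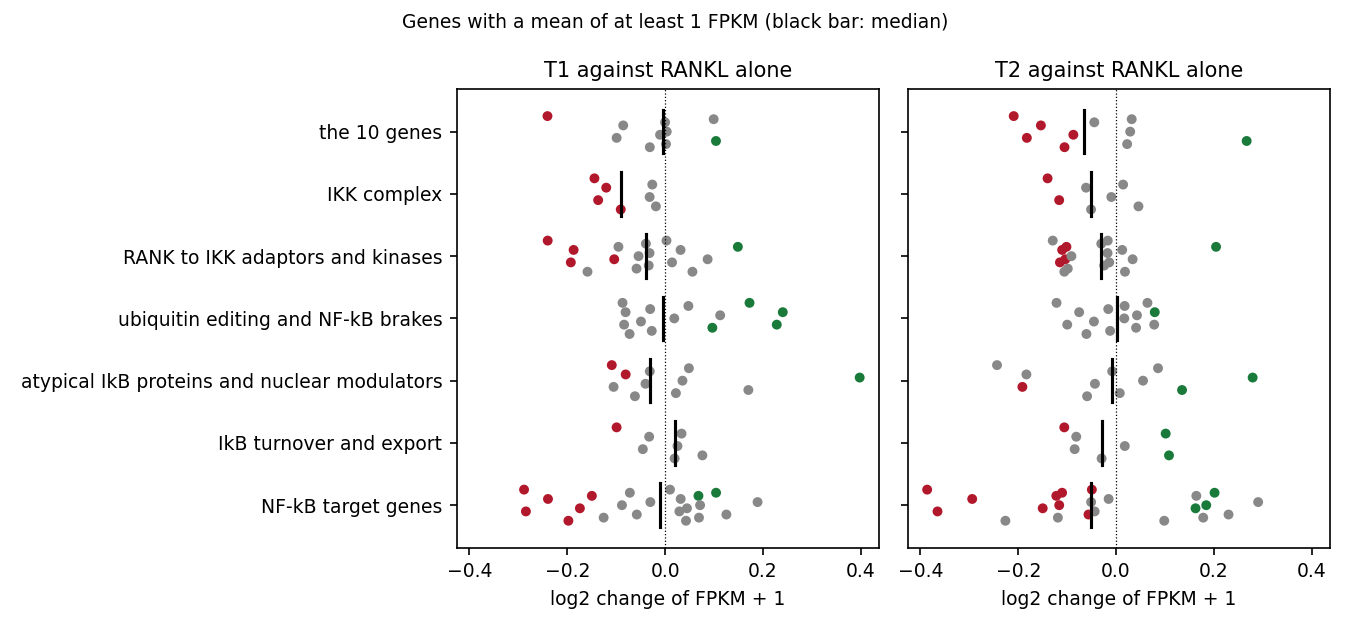
Change of each gene that averaged 1 FPKM or more, as log2 of FPKM + 1 against RANKL alone, for the 10 genes and the 6 pathway lists in T1 (left) and T2 (right). Green and red points differ beyond counting error, grey points do not, and black bars are medians: -0.0053 and -0.07 for the 10 genes and -0.09 and -0.05 for the IKK complex.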

How the data were processed

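The values are FPKM as the authors deposited them, 1 column per library, beside a gene length that belongs to no library. Builds GRCm38 and mm10 are named in the submitters' processing notes. Which aligner, counter, strand setting and annotation were used is not given in the sources used here. Deposited lengths equalled the union of exons in GENCODE M21 for 98.0% of the shared genes. They departed from that union for Nfkb2 and Rela. FPKM times length was a whole multiple of 1 step per library within 0.01 for 100% of values above 0, which gave reads per gene. Median-of-ratios factors of the deposited values differed between libraries by no more than the shift of -1.13e-10 on the log2 scale, so the deposited scale already carries such a scaling. The column names identify RANKL alone but tell only that T1 and T2 had TSH, and 0 per-sample columns were left unused.

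Ratios, counting intervals and changes of log2(FPKM + 1) were computed for genes averaging 1 FPKM or more, without a test, since each condition has 1 library. The functions were tested on simulated Poisson reads, the model that the intervals assume. That test cannot show how the intervals do with spread between libraries or with PCR copies. The 10 genes and the lists were chosen with earlier results of these data known. Named beside them were up to 3 genes per list with the largest change against RANKL alone, and always Tshr, Tnfsf11 and Tnfrsf11a. Of the genes this rule names, 1 is not reported here. Chuk, Ikbkb, Ikbkg, Btrc, Tnf, Ccl3, Plek, Ccer2, Sirt2, Psd, AC114539.1, Traf3, Il6, Cxcl1 and the cell markers were named after their values were seen. Stretches of 100 bases or more with 95% identity or more were searched for in GENCODE M21 transcripts with BLAST+ 2.17.0. Python 3.11.15, numpy 2.4.6, pandas 2.3.3, scipy 1.17.1 and matplotlib 3.10.9 were used.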

Additional observations from a re-analysis of the deposited data

How the results depend on the processing

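With libraries rescaled to the same FPKM total, 2 of the 10 genes in place of 1 were lower in T1 against RANKL alone, since Relb joined Tnfaip3 at a ratio of 0.913. With a 99% interval 0 genes in place of 1 were higher in T2 against T1, and Nfkb2 left the lower genes in T2 against RANKL alone. With a fold of 1.2 in place of 2, 1 gene passed the size rule in T2 against RANKL alone. All 237 ratios and log2 changes of the 10 genes recomputed under the other scalings, pseudocounts, filters and interval level were counted as unchanged. The ratios stayed inside the reported 95% intervals, and the log2 changes have no interval of their own. Filters and the interval level leave a ratio as it is, and median-of-ratios scaling hardly moved any, since the deposited values already carry it. Only rescaling to the same FPKM total, scaling to summed reads and the pseudocounts could move these values. The count of all genes past the size rule, 115, 85 and 92 in T1, T2 and T2 against T1, became 219, 197 and 176 with a pseudocount of 0.1 and 17, 8 and 13 with 5. It became 223, 208 and 201 without a filter and 25, 13 and 16 with a mean of at least 5 FPKM, which leaves out Map3k14. It became 290, 272 and 251 at a fold of 1.5 and 1133, 1097 and 935 at 1.2. As shares of recovered reads, not per length, Nfkb1 had 29.5% and Nfkb2 33.4% of the subunit genes in RANKL alone. Scaling to summed reads and the length of the longest coding transcript were chosen after seeing the data. With 1 library per condition, leaving out a library leaves no comparison, and the depth gives the ratios of the 10 genes counting intervals only.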
